A study of Mus musculus with 6 samples.

Results

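The 41 genes described here are members of the cell cycle machinery, chosen by symbol from a fixed list and matched in the count tables of all 6 libraries, which hold 33696 genes. All 41 were found, each once. They fall into 5 regulators of the G1 phase (the cyclin genes *Ccnd1*, *Ccnd2*, *Ccne1* and *Ccne2*, and *E2f1*), 12 genes of DNA replication in S phase, 21 genes of the G2 and M phases, and 3 inhibitors of cyclin-dependent kinases (CDKs), *Cdkn1a*, *Cdkn2a* and *Cdkn2c*.

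Cells came from the Achilles tendon of *Gli1*-CreERT2; Ai9 mice, in which tamoxifen lets a Cre recombinase under the *Gli1* gene switch on a red fluorescent reporter for good. The reporter therefore marks cells that expressed *Gli1* when tamoxifen was given and their descendants, and not present *Gli1* transcription. Tendons were uninjured, or were taken 7 or 21 days after tenotomy (dpi), a cut through the tendon after which cartilage and bone can form in it. Sorting on the reporter gave *Gli1*+ and *Gli1*- cells, and single-cell libraries were made from them, 1 for every sort and time with its mice pooled, 8 per time point and 24 in all, with no map from cells to mice. All 6 groups share the reporter alleles and tamoxifen. Conditions could not be tested against each other for want of replicate libraries, and every interval below is a 95% interval that covers counting error only.

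A cell passes from G1 into S phase when cyclins D and E with their CDKs inactivate the retinoblastoma proteins and so release E2F factors, which turn on the genes of DNA replication. Genes of G2 and mitosis are turned on later. Through the CHR element in their promoters the DREAM complex represses them in resting cells, and complexes with B-MYB and FOXM1 turn them on. CDK inhibitors hold these kinases back. Resting tendon is known for few dividing cells, and wound repair for a burst of division among fibroblasts.

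The kept cells numbered 57767, with 53564928 to 107887022 UMIs (unique molecular identifiers, each standing for 1 captured transcript) per library and medians of 4297 to 9775 UMIs per cell. Library pairs shared 15 to 32 cell barcodes, at most 0.354% of the smaller library. Clusters were made without the 41 genes, and 11 of 27 clusters, with 38950 cells, were mesenchymal, that is tendon cells and fibroblasts with markers such as *Pdgfra*. Different clusters held most mesenchymal cells at each time, cluster 0 in uninjured *Gli1*- tendon (4384 of 5813 cells), clusters 0, 5 and 7 in uninjured *Gli1*+ tendon (958, 411 and 705 of 2462), cluster 3 (5422 of 7028) in *Gli1*+ and cluster 2 (5447 of 8028) in *Gli1*- tendon at 7 dpi, and cluster 1 (4296 of 8058 and 3818 of 7561) at 21 dpi. The libraries also differed in sex, against the label of equal sexes. Of the cells with *Xist* or Y-linked UMIs but not both, 6555 of *Gli1*+ and 7006 of *Gli1*- cells at 7 dpi were Y-linked with 1 *Xist* cell each, at 21 dpi 9069 and 9840 held *Xist* against 11 and 6 Y-linked, the uninjured *Gli1*- library held 6481 Y-linked and 0 *Xist* cells, and the uninjured *Gli1*+ library was mixed, with 4847 *Xist* and 1061 Y-linked cells. Sex and time therefore cannot be told apart between 7 and 21 dpi, nor between uninjured tendon and 21 dpi in *Gli1*- cells, while 7 dpi can be set against Y-linked uninjured cells in both sorts and 21 dpi against *Xist* cells in *Gli1*+.

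Promoters are shown first, because the members of a phase often hold the same motif in them. RefSeq promoter windows of the GRCm38.p6 build, 300 bases from 250 before to 50 after the gene's start and read 5′ to 3′ on the gene's strand, were matched for 34 of the 41 genes (38 windows, 4 genes with more than 1). The 3 motifs below were searched on both strands, the CHR element TTTGAA, the CCAAT box CCAAT, and the E2F site, taken as TTGGCGC or in the variant forms written TTCCCGC and then the forms written TTGCCGC or lastly written TTCGCGC, whose reverse can overlap a CCAAT box. The motifs were chosen after windows of members had been seen. Capitals mark the matches.
Cdk1, chr10:69352863-69353162, minus strand: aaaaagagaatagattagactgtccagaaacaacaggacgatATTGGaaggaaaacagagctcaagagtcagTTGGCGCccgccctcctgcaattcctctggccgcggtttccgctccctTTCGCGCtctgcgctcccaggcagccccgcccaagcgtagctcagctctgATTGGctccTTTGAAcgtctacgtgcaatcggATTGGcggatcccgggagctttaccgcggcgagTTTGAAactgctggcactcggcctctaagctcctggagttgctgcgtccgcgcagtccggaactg
Top2a, chr11:99024140-99024439, minus strand: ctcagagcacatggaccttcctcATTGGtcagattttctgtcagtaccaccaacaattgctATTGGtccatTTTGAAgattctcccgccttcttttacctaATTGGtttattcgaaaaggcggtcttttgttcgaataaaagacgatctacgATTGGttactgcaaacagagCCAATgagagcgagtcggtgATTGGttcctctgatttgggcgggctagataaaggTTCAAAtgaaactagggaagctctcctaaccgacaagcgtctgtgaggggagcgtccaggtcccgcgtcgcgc
Ube2c, chr2:164769679-164769978, plus strand: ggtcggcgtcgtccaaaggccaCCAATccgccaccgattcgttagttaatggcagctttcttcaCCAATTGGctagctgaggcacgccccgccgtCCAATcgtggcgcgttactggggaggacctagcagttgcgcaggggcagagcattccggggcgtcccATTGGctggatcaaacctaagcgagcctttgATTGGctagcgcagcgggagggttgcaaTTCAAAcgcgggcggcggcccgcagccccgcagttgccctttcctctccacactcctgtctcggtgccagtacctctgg
Mcm5, chr8:75109259-75109558, plus strand: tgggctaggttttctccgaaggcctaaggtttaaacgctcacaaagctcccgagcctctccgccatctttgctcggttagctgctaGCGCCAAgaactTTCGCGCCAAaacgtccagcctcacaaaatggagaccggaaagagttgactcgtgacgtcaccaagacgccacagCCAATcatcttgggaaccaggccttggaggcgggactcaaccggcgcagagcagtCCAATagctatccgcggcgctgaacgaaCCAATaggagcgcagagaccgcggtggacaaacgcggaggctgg
Pclaf, chr9:65890073-65890372, plus strand: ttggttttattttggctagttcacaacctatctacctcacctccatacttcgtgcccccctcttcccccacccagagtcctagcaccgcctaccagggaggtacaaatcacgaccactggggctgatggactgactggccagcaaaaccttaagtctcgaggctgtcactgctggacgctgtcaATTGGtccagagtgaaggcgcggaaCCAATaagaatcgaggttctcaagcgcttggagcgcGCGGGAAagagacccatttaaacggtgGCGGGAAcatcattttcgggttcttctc
Pcna, chr2:132253131-132253430, minus strand: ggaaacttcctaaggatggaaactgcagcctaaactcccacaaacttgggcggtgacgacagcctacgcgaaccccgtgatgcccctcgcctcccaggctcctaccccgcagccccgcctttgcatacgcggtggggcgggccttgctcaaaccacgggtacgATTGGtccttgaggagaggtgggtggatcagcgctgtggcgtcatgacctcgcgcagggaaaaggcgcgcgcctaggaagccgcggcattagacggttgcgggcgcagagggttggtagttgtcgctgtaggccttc
Cdkn1a, chr17:29090729-29091028, plus strand: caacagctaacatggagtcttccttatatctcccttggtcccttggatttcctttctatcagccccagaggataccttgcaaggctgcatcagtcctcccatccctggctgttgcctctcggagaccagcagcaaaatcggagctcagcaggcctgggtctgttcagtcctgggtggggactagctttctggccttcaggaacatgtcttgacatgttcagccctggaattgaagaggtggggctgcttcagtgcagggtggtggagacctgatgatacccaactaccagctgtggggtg
Cdkn1a, chr17:29093519-29093818, plus strand: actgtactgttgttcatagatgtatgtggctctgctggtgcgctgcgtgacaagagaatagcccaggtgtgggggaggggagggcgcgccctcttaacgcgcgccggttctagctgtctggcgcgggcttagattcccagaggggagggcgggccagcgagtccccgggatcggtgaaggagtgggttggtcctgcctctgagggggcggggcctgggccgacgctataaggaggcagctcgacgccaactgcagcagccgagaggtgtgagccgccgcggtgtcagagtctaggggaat

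*Cdk1*, the kinase that drives entry into mitosis, *Top2a*, the topoisomerase that untangles sister chromosomes, and *Ube2c*, the ubiquitin enzyme that serves mitotic exit, are shown as G2 and M members with a CHR match close before the start (at -15, -23 and -29 bases). *Mcm5*, a subunit of the replicative helicase, and *Pclaf*, a partner of the replication clamp, stand for S phase members with E2F matches (3 and 2). *Pcna*, the replication clamp itself, and *Cdkn1a*, the p21 inhibitor, are shown because their levels went their own way below. The *Pcna* window held 1 CCAAT match and no CHR or E2F match, and neither *Cdkn1a* window held any of the 3 motifs. The windows of *Birc5*, *Tk1* and *Tyms*, which rose at 7 dpi, held none of the 3 either. That of *Rrm1*, which did not pass the fold there, held 1 E2F match. A link between motif and level was not tested. Among G2 and M genes 13 of 18 windows (72.2%) held the CHR motif, against 1 of 12 S phase windows (8.33%, *Mcm2*) and 17.9% of all 32851 windows. The E2F motif was in 8 of 12 S phase windows (66.7%), 3 of 18 G2 and M windows (16.7%) and 9.57% of all windows. The CCAAT box was in 16 of 18 G2 and M windows (88.9%), 10 of 12 S phase windows (83.3%) and 37.4% of all windows. A match is a description of the letters, not a site shown to be bound.

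In mesenchymal cells the G2 and M genes were at their highest level at 7 dpi in both sorts. Their summed level in CPM, that is UMIs per 1000000 UMIs of the cells counted, was 42.4 CPM (39.8 to 45.2) in uninjured, 458 CPM (453 to 463) in 7 dpi and 106 CPM (104 to 108) in 21 dpi *Gli1*+ cells. In *Gli1*- cells it was 29.2 CPM (27.5 to 30.9), 368 CPM (364 to 372) and 115 CPM (113 to 118). Both sorts thus stood lowest in uninjured tendon and between the other levels at 21 dpi. The uninjured sums were close to those of muscle fibres, as given with the shares. The log2 ratio of the sum over uninjured tendon was 3.43 (3.34 to 3.52) for *Gli1*+ and 3.66 (3.57 to 3.75) for *Gli1*- cells at 7 dpi, and 1.32 (1.22 to 1.41) and 1.98 (1.89 to 2.08) at 21 dpi. Among cells with Y-linked and no *Xist* UMIs, the level went from 78.3 CPM without injury to 477 CPM at 7 dpi for *Gli1*+, and from 25.0 to 399 CPM for *Gli1*-. Among *Xist* cells of the *Gli1*+ libraries it went from 30.7 CPM without injury to 106 CPM at 21 dpi. Without clusters 2 and 3 the log2 ratio was 2.31 for *Gli1*+ and 2.23 for *Gli1*- cells at 7 dpi, and 0.52, under the fold, and 1.8 at 21 dpi.

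The S phase sum moved less. It was 137, 286 and 121 CPM in *Gli1*+ cells and 157, 252 and 117 CPM in *Gli1*- cells, in the order uninjured, 7 dpi and 21 dpi that all lists of 3 levels follow from here on. Its log2 ratio over uninjured tendon was 1.06 (1.01 to 1.11) and 0.69 (0.64 to 0.73) at 7 dpi, and -0.18 (-0.24 to -0.12) and -0.42 (-0.47 to -0.38) at 21 dpi. The 7 dpi ratio in *Gli1*- cells was -0.17 without clusters 2 and 3, and the 21 dpi ratio in *Gli1*+ cells was 0.18 under TMM scaling, so neither sign held under every setting. The sum of G1 regulators was 192, 157 and 136 CPM in *Gli1*+ cells and 130.0, 157 and 139 CPM in *Gli1*- cells, and that of the 3 CDK inhibitors 419, 71.4 and 229 CPM and 131, 62.7 and 213 CPM. The inhibitor sum, of which *Cdkn1a* makes up the most, was thus lowest where the G2 and M sum was highest, while *Cdkn2a* and *Cdkn2c* were not, as given with them.

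**Figure D1:**
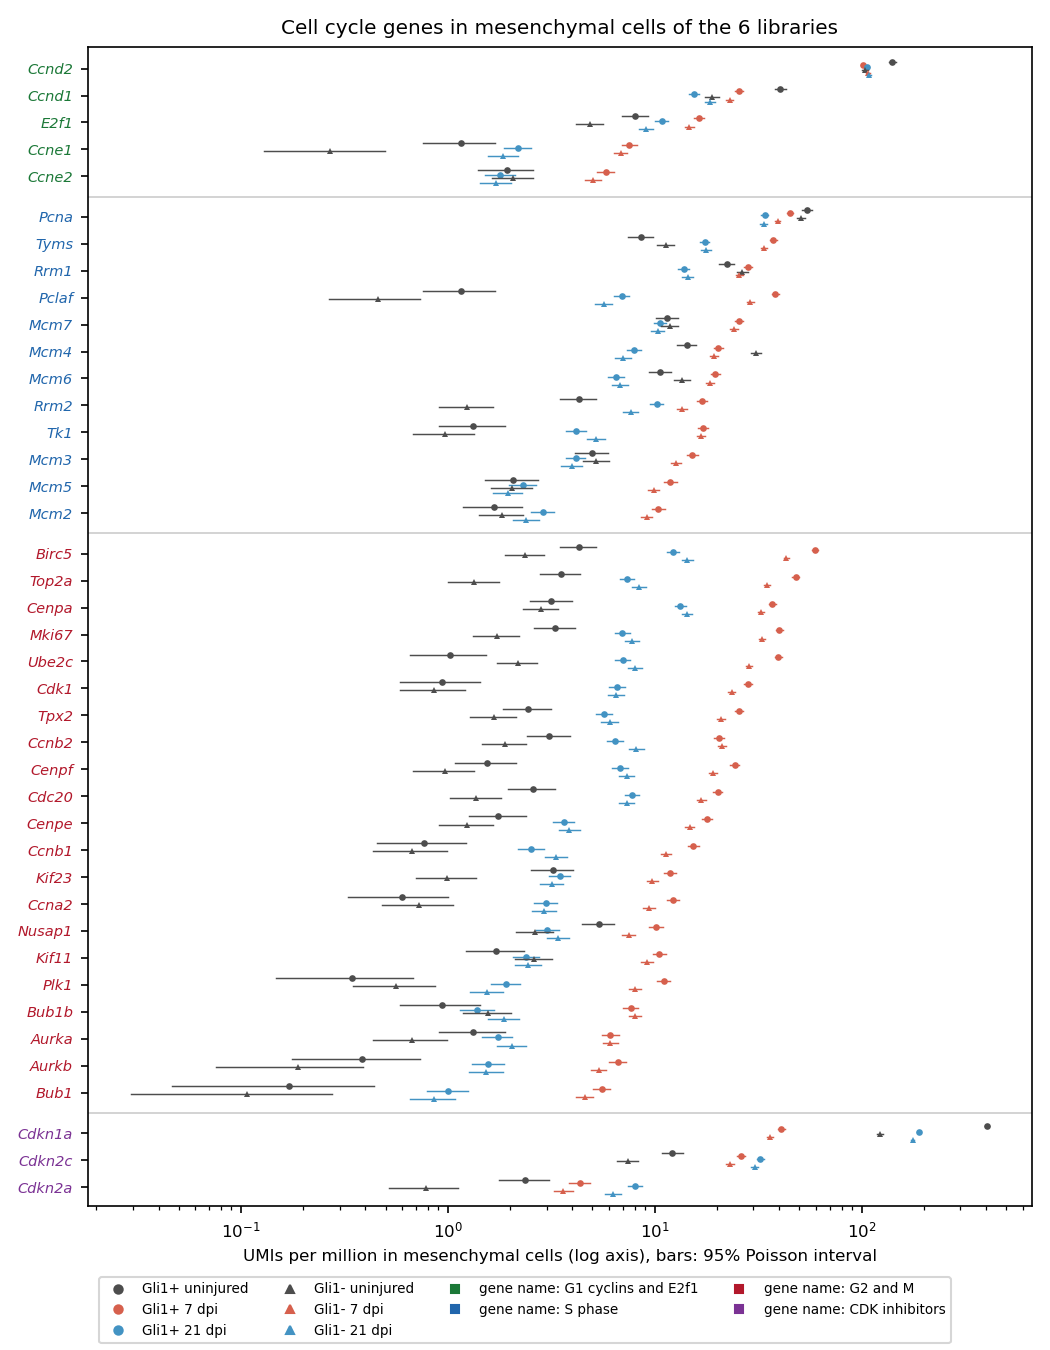
Level of each of the 41 genes in mesenchymal cells of the 6 libraries, in CPM on a log axis, with 95% Poisson intervals as bars. Circles are *Gli1*+ and triangles *Gli1*- libraries, in grey for uninjured tendon, red for 7 dpi and blue for 21 dpi, and all 21 G2 and M genes show red points to the right of grey ones of the same sort, with blue left of grey for *Nusap1* in *Gli1*+ and *Kif11* in *Gli1*- cells, while *Cdkn1a* shows the reverse at 7 dpi.

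Counted gene by gene, with a log2 ratio of 1 (a fold of 2) as the limit and at least 50 UMIs in both libraries together, 32 of the 41 genes were higher and 1 lower at 7 dpi than in uninjured tendon among *Gli1*+ mesenchymal cells. Of all genes tested, 13.4% were higher and 20% lower by that fold. In *Gli1*- cells 34 were higher and 1 lower, against 14.1% and 15.4% of all genes. All 32 were among the 34 (100% of the *Gli1*+ and 94.1% of the *Gli1*- list), and *Nusap1* and *Cdkn2a* passed in *Gli1*- cells alone, although under TMM scaling, described below, they reached 1.14 and 1.1 in *Gli1*+ cells too. The overlap of the sorts' lists over all genes was not counted, so whether this agreement is particular to the 41 genes is not known. The median log2 ratio of the 41 genes was 2.64 in *Gli1*+ and 3.29 in *Gli1*- cells, where the median of all genes was -0.18 and -0.07.

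At 21 dpi 22 genes were higher and 2 lower than in uninjured tendon in *Gli1*+ cells, against 7.66% and 19.5% of all genes, and 24 and 1 in *Gli1*- cells, against 12.6% and 15.6%. The lists shared 21 genes (95.5% and 87.5% of them), with *Tyms* past the limit in *Gli1*+ cells alone and *Ccne1*, *Aurka* and *Kif23* in *Gli1*- cells alone. Under TMM scaling *Ccne1* passed in *Gli1*+ cells too. This overlap was not counted over all genes either. From 7 to 21 dpi 33 genes were lower and 1 higher in *Gli1*+ cells, where 10.8% of all genes were lower and 4.57% higher, and 31 and 1 in *Gli1*- cells, where the shares were 6.8% and 5.27%. The 1 higher gene was *Cdkn1a* in both sorts. Scaling by TMM factors, which are set so that most genes do not move, shifted the *Gli1*+ ratios over uninjured tendon by 0.22 at 7 dpi and 0.36 at 21 dpi and the *Gli1*- ratios by 0.05 and 0.12. At 7 dpi this changed the sign of *Rrm1* in *Gli1*- cells, and at 21 dpi that of *Ccne2*, *Mcm3* and *Mcm7* in *Gli1*+ and *Ccnd1*, *Mcm5* and *Kif11* in *Gli1*- cells. It also took *Cdkn1a* in *Gli1*+ cells at 21 dpi under the fold, at -0.74, and brought *Cdkn2a* past it from 7 to 21 dpi in *Gli1*+ cells, at 1.03.

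**Figure D2:**
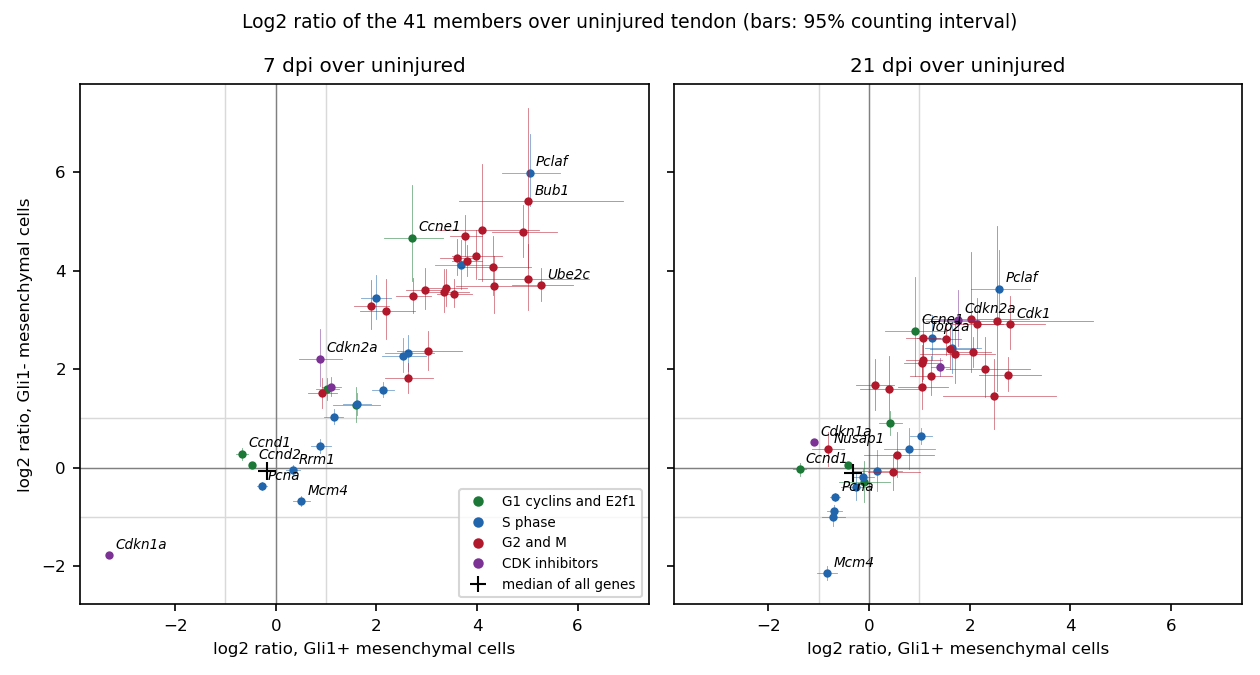
Log2 ratio of each gene over uninjured tendon in *Gli1*+ (horizontal axis) and *Gli1*- mesenchymal cells (vertical axis), at 7 dpi on the left and 21 dpi on the right, with 95% counting intervals as bars and grey lines at 0 and at a log2 ratio of 1 either way. The 21 G2 and M genes in red lie above 0 on both axes at 7 dpi, *Cdkn1a* lies far below, and the cross marks the median of all genes.

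All 21 G2 and M genes were higher at 7 dpi than in uninjured tendon in both sorts, each with an interval above 0, and 20 in *Gli1*+ and 21 in *Gli1*- cells passed the fold, against 13.4% and 14.1% of all genes. The exception in *Gli1*+ cells was *Nusap1* at 0.92 (0.65 to 1.21). *Birc5*, whose product survivin guides chromosome segregation, was at 4.28, 59.6 and 12.3 CPM in *Gli1*+ cells and 2.37, 43.2 and 14.4 CPM in *Gli1*- cells. *Top2a* was at 3.51, 47.9 and 7.34 CPM in *Gli1*+ cells and 1.35, 35.0 and 8.4 CPM in *Gli1*- cells. For both genes every injured library lay above both uninjured ones. The log2 ratio of *Birc5* at 7 dpi was 3.8 (3.51 to 4.1) for *Gli1*+ and 4.19 (3.89 to 4.51) for *Gli1*- cells, and that of *Top2a* 3.77 (3.45 to 4.1) and 4.7 (4.3 to 5.13).

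*Mki67*, the gene of the Ki-67 proliferation antigen, which coats mitotic chromosomes, was at 3.3, 40.0 and 6.96 CPM in *Gli1*+ cells and 1.72, 33.1 and 7.78 CPM in *Gli1*- cells. *Cenpa*, the histone variant that marks centromeres, was at 3.17, 37.0 and 13.3 CPM in *Gli1*+ cells and 2.82, 32.7 and 14.3 CPM in *Gli1*- cells. For *Cenpa* the ratio over uninjured tendon at 21 dpi, on the log2 scale and set against that at 7 dpi, was 2.07 against 3.55 in *Gli1*+ and 2.34 against 3.54 in *Gli1*- cells. *Mki67* had log2 ratios of 3.6 (3.27 to 3.95) and 4.26 (3.91 to 4.64) at 7 dpi and 1.08 (0.73 to 1.44) and 2.18 (1.8 to 2.57) at 21 dpi.

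*Ube2c* was at 1.03, 39.6 and 6.99 CPM in *Gli1*+ cells and 2.18, 28.5 and 8.04 CPM in *Gli1*- cells. Its uninjured levels rest on 24 and 81 UMIs, and its log2 ratio at 7 dpi was 5.27 (4.69 to 5.91) for *Gli1*+ and 3.71 (3.39 to 4.05) for *Gli1*- cells. In uninjured tendon it was lower in *Gli1*+ than in *Gli1*- cells by the fold, with a log2 ratio of -1.08 (-1.81 to -0.41). *Nusap1*, which bundles spindle microtubules, was at 5.35, 10.1 and 3.03 CPM in *Gli1*+ cells and 2.64, 7.51 and 3.43 CPM in *Gli1*- cells. At 21 dpi it lay below uninjured tendon in *Gli1*+ cells, with a log2 ratio of -0.82 (-1.14 to -0.50), and above it in *Gli1*- cells, with 0.38 (0.04 to 0.73). *Nusap1* thus departed from the sum of its group at 21 dpi in *Gli1*+ cells.

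The other 15 G2 and M genes are *Cdk1*, the mitotic cyclins *Ccnb1*, *Ccnb2* and *Ccna2*, the mitotic kinases *Plk1*, *Aurka* and *Aurkb*, the spindle checkpoint genes *Bub1* and *Bub1b*, *Cdc20*, which activates the ubiquitin ligase of anaphase, the kinetochore genes *Cenpe* and *Cenpf*, the kinesins *Kif11* and *Kif23*, and *Tpx2*, which activates Aurora A on the spindle. Their levels ran from 0.171 (*Bub1*) to 3.21 CPM (*Kif23*) in uninjured *Gli1*+ cells, from 5.53 (*Bub1*) to 28.3 CPM (*Cdk1*) at 7 dpi and from 1.0 (*Bub1*) to 7.80 CPM (*Cdc20*) at 21 dpi. In *Gli1*- cells the ranges were 0.108 (*Bub1*) to 2.61 CPM (*Kif11*), 4.59 (*Bub1*) to 23.6 CPM (*Cdk1*) and 0.853 (*Bub1*) to 8.16 CPM (*Ccnb2*). No range at 7 dpi overlapped that of its own uninjured library. The log2 ratios at 7 dpi ran from 1.89 (*Kif23*) to 5.01 (*Plk1*) in *Gli1*+ and from 1.81 (*Kif11*) to 5.42 (*Bub1*) in *Gli1*- cells, the upper ones on uninjured counts of 8 and 4 UMIs. At 21 dpi they ran from 0.11 (*Kif23*) to 2.80 (*Cdk1*) and from -0.09 (*Kif11*) to 3.03 (*Aurkb*).

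The S phase genes split. At 7 dpi 8 of 12 passed the fold upward in each sort and none downward, at 21 dpi 4 in *Gli1*+ and 3 in *Gli1*- cells upward and 0 and 1 downward. Of all genes 13.4% and 14.1% were higher at 7 dpi, and 7.66% and 12.6% higher and 19.5% and 15.6% lower at 21 dpi. *Pclaf* was at 1.16, 38.2 and 6.94 CPM in *Gli1*+ cells and 0.457, 29.0 and 5.68 CPM in *Gli1*- cells, and its log2 ratios at 7 dpi, 5.05 (4.5 to 5.65) and 5.99 (5.31 to 6.77), were the highest of the S phase genes. *Tk1*, the salvage enzyme that makes thymidine phosphate, was at 1.33, 17.1 and 4.17 CPM in *Gli1*+ cells and 0.968, 16.7 and 5.18 CPM in *Gli1*- cells. *Tyms*, which makes the same nucleotide from uridine phosphate, was at 8.57, 37.5 and 17.4 CPM in *Gli1*+ cells and 11.3, 33.8 and 17.7 CPM in *Gli1*- cells. All 3 stood highest at 7 dpi and stayed above uninjured tendon at 21 dpi in both sorts, with 21 dpi log2 ratios of 2.59 and 3.64 for *Pclaf*, 1.65 and 2.42 for *Tk1* and 1.02 and 0.65 for *Tyms*.

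The subunits of ribonucleotide reductase, the enzyme that makes the building blocks of DNA, differed from each other. *Rrm2*, the subunit made in S phase, was at 4.28, 17.0 and 10.2 CPM in *Gli1*+ cells and 1.24, 13.5 and 7.65 CPM in *Gli1*- cells, with 7 dpi log2 ratios of 1.99 (1.69 to 2.3) and 3.45 (3.03 to 3.91). *Rrm1*, the large subunit, was at 22.3, 28.2 and 13.8 CPM in *Gli1*+ cells and 26.5, 25.6 and 14.4 CPM in *Gli1*- cells, with 0.34 (0.20 to 0.48) and -0.05 (-0.15 to 0.06). *Rrm1* thus lay close to its uninjured level at 7 dpi and below it at 21 dpi, with log2 ratios of -0.69 and -0.87, where *Rrm2* was above by 1.25 and 2.63.

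*Pcna* went the other way from its group at 7 dpi. It was at 54.4 CPM (51.4 to 57.5), 44.9 CPM (43.4 to 46.5) and 34.1 CPM (32.8 to 35.4) in *Gli1*+ cells. In *Gli1*- cells it was at 50.7 CPM (48.4 to 53.1), 39.2 CPM (38.0 to 40.5) and 33.6 CPM (32.3 to 34.9). Each sort was highest in uninjured tendon and lowest at 21 dpi, with log2 ratios of -0.28 (-0.37 to -0.18) and -0.37 (-0.45 to -0.29) at 7 dpi and -0.68 (-0.77 to -0.58) and -0.60 (-0.68 to -0.51) at 21 dpi, none past the fold. Under TMM scaling its ratio in *Gli1*+ cells at 7 dpi was -0.056. *Pcna* gave the most UMIs of the S phase list, and without it the 7 dpi ratio of the sum was 1.54 in *Gli1*+ and 1.01 in *Gli1*- cells.

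The 6 helicase subunits were not alike either. *Mcm2* was at 1.67, 10.4 and 2.88 CPM in *Gli1*+ cells and 1.83, 9.13 and 2.39 CPM in *Gli1*- cells, with 7 dpi log2 ratios of 2.64 (2.17 to 3.14) and 2.32 (1.96 to 2.7). *Mcm4* was at 14.3, 20.3 and 7.98 CPM in *Gli1*+ cells and 30.9, 19.4 and 7.02 CPM in *Gli1*- cells. Its uninjured *Gli1*- level was the highest of the 6 libraries, so that at 7 dpi its ratio was 0.51 (0.34 to 0.69) for *Gli1*+ and -0.67 (-0.78 to -0.56) for *Gli1*- cells, and at 21 dpi -0.84 (-1.03 to -0.64) and -2.14 (-2.29 to -1.99). That level was not particular to mesenchyme. In the uninjured *Gli1*- library *Mcm4* was at 35.0 CPM in muscle fibres, 32.3 CPM in lymphatic and 26.5 CPM in blood endothelial cells. Schwann cells there were at 28.8 CPM and mural cells at 27.5 CPM. The other 4, *Mcm3*, *Mcm5*, *Mcm6* and *Mcm7*, ran from 2.06 (*Mcm5*) to 11.5 CPM (*Mcm7*) in uninjured *Gli1*+ cells, from 11.9 (*Mcm5*) to 25.5 CPM (*Mcm7*) at 7 dpi and from 2.30 (*Mcm5*) to 10.6 CPM (*Mcm7*) at 21 dpi. Their *Gli1*- ranges were 2.04 (*Mcm5*) to 13.6 CPM (*Mcm6*), 9.90 (*Mcm5*) to 24.2 CPM (*Mcm7*) and 1.96 (*Mcm5*) to 10.3 CPM (*Mcm7*). At 7 dpi the 4 had log2 ratios from 0.89 (*Mcm6*) to 2.53 (*Mcm5*) in *Gli1*+ and from 0.44 (*Mcm6*) to 2.28 (*Mcm5*) in *Gli1*- cells, and at 21 dpi from -0.71 (*Mcm6*) to 0.16 (*Mcm5*) and from -1.0 (*Mcm6*) to -0.06 (*Mcm5*).

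Among the G1 regulators the E cyclins and *E2f1* moved with the G2 and M genes and the D cyclins did not. *Ccne1*, a cyclin E that activates CDK2 at entry into S phase, was at 1.16, 7.54 and 2.18 CPM in *Gli1*+ cells and 0.269, 6.84 and 1.85 CPM in *Gli1*- cells. *Ccne2*, the other cyclin E, was at 1.93, 5.8 and 1.79 CPM in *Gli1*+ cells and 2.07, 5.01 and 1.71 CPM in *Gli1*- cells. *E2f1*, an activating E2F factor, was at 8.05, 16.4 and 10.8 CPM in *Gli1*+ cells and 4.84, 14.7 and 9.09 CPM in *Gli1*- cells. All 3 were highest at 7 dpi in both sorts, with log2 ratios of 2.7 (2.15 to 3.32) and 4.67 (3.78 to 5.73) for *Ccne1*, 1.59 (1.14 to 2.07) and 1.28 (0.93 to 1.64) for *Ccne2* and 1.03 (0.80 to 1.26) and 1.6 (1.37 to 1.83) for *E2f1*. The uninjured levels of *Ccne1* rest on 27 UMIs in *Gli1*+ and 10 in *Gli1*- cells. At 21 dpi the ratios of *Ccne2* were -0.11 (-0.60 to 0.41) and -0.28 (-0.70 to 0.15), both with intervals across 0.

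*Ccnd1*, the cyclin D that growth factors induce, was at 40.5, 25.5 and 15.6 CPM in *Gli1*+ cells and 18.9, 23.0 and 18.5 CPM in *Gli1*- cells. Its uninjured *Gli1*+ level stood above the other 5 libraries, and its 7 dpi log2 ratio was -0.67 (-0.78 to -0.55) for *Gli1*+ and 0.28 (0.16 to 0.41) for *Gli1*- cells. At 21 dpi the ratio was -1.38 (-1.5 to -1.26) in *Gli1*+ cells, past the fold, and -0.03 (-0.16 to 0.10) in *Gli1*- cells. *Ccnd2*, the cyclin D with the higher UMI counts, was at 141, 102 and 106 CPM in *Gli1*+ cells and 104, 107 and 108 CPM in *Gli1*- cells. The 5 libraries other than uninjured *Gli1*+ lay within 102 to 108 CPM, and the log2 ratio over uninjured tendon was -0.47 (-0.53 to -0.41) and 0.05 (-0.01 to 0.10) at 7 dpi.

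*Cdkn1a*, which encodes p21 and blocks CDK2 and the replication clamp, had the largest downward change of the 41 genes at 7 dpi. Its level was 405 CPM (396 to 413), 40.9 CPM (39.4 to 42.4) and 189 CPM (186 to 192) in *Gli1*+ cells. In *Gli1*- cells it was 123 CPM (119 to 126), 35.9 CPM (34.8 to 37.1) and 177 CPM (174 to 179.6). The 7 dpi libraries were lowest in both sorts and close to each other, and the uninjured *Gli1*+ library was the highest of all 6. The log2 ratio at 7 dpi was -3.31 (-3.37 to -3.25) for *Gli1*+ and -1.77 (-1.83 to -1.71) for *Gli1*- cells, and at 21 dpi -1.1 (-1.14 to -1.06) and 0.53 (0.48 to 0.57). With clusters made at resolution 1.0 the last of these was 0.12. Apart from uninjured *Gli1*+ tendon, the uninjured and 21 dpi levels were close to those of muscle fibres, given with the other cell types. Among Y-linked cells it went from 349 CPM without injury to 40.2 CPM at 7 dpi for *Gli1*+, and from 126 to 35.0 CPM for *Gli1*-.

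Of a list of 12 genes known to rise during tissue dissociation, 7 were lower by the fold at 7 dpi in *Gli1*+ and 9 in *Gli1*- cells and 0 were higher, with median log2 ratios of -1.11 and -1.17, where 20% and 15.4% of all genes were lower. At 21 dpi 1 was lower in *Gli1*+ cells (median -0.65) and 7 in *Gli1*- cells (median -1.1), against 19.5% and 15.6% of all genes. In those *Gli1*- cells the *Cdkn1a* ratio was 0.53. Those with the largest ratios in *Gli1*+ cells at 7 dpi were the heat shock gene *Hspa1b*, at 209.9, 63.5 and 139 CPM in *Gli1*+ cells and 73.0, 49.0 and 103 CPM in *Gli1*- cells (7 dpi log2 ratios -1.73 and -0.57), and the early response genes *Egr1* and *Fosb*, with 7 dpi log2 ratios of -1.5 and -1.62 for *Egr1* and -1.4 and -1.23 for *Fosb*. Their part in the *Cdkn1a* level was not tested. Of 12 other targets of p53, the factor that induces *Cdkn1a*, 2 were higher and 0 lower in *Gli1*+ and 0 higher and 2 lower in *Gli1*- cells at 7 dpi, where 13.4% and 14.1% of all genes were higher and 20% and 15.4% lower, so that the counts do not set these targets apart. The apoptosis gene *Bax* was at 57.5, 150.2 and 125 CPM in *Gli1*+ cells and 75.2, 141 and 127 CPM in *Gli1*- cells, highest at 7 dpi where *Cdkn1a* was lowest. The kinase gene *Plk2* had 7 dpi log2 ratios of 1.15 and 0.69, and *Trp53inp1*, which promotes p53 activity, -0.70 and -0.78.

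*Cdkn2a* and *Cdkn2c*, inhibitors of the INK4 family, which blocks CDK4 and CDK6, were at their highest at 21 dpi in both sorts. *Cdkn2a*, whose locus encodes both p16 and p19ARF, which 3′ counts do not separate, was at 2.36, 4.34 and 8.02 CPM in *Gli1*+ cells and 0.78, 3.62 and 6.27 CPM in *Gli1*- cells. *Cdkn2c*, which encodes p18, was at 12.2, 26.2 and 32.4 CPM in *Gli1*+ cells and 7.4, 23.2 and 30.4 CPM in *Gli1*- cells. Over all mesenchymal cells both genes were lowest in uninjured tendon and between at 7 dpi in each sort, with 21 dpi log2 ratios of 1.77 (1.37 to 2.19) and 3.01 (2.47 to 3.6) for *Cdkn2a* and 1.41 (1.23 to 1.59) and 2.04 (1.86 to 2.23) for *Cdkn2c*. The 7 dpi ratios were 0.88 and 2.21 for *Cdkn2a* and 1.11 and 1.65 for *Cdkn2c*. Among Y-linked cells *Cdkn2a* went the other way in *Gli1*+, from 7.08 CPM without injury to 4.48 CPM at 7 dpi, and from 0.946 to 3.67 CPM in *Gli1*-, while uninjured *Xist* cells of *Gli1*+ were at 0.821 CPM and those at 21 dpi at 7.85 CPM.

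**Figure D3:**
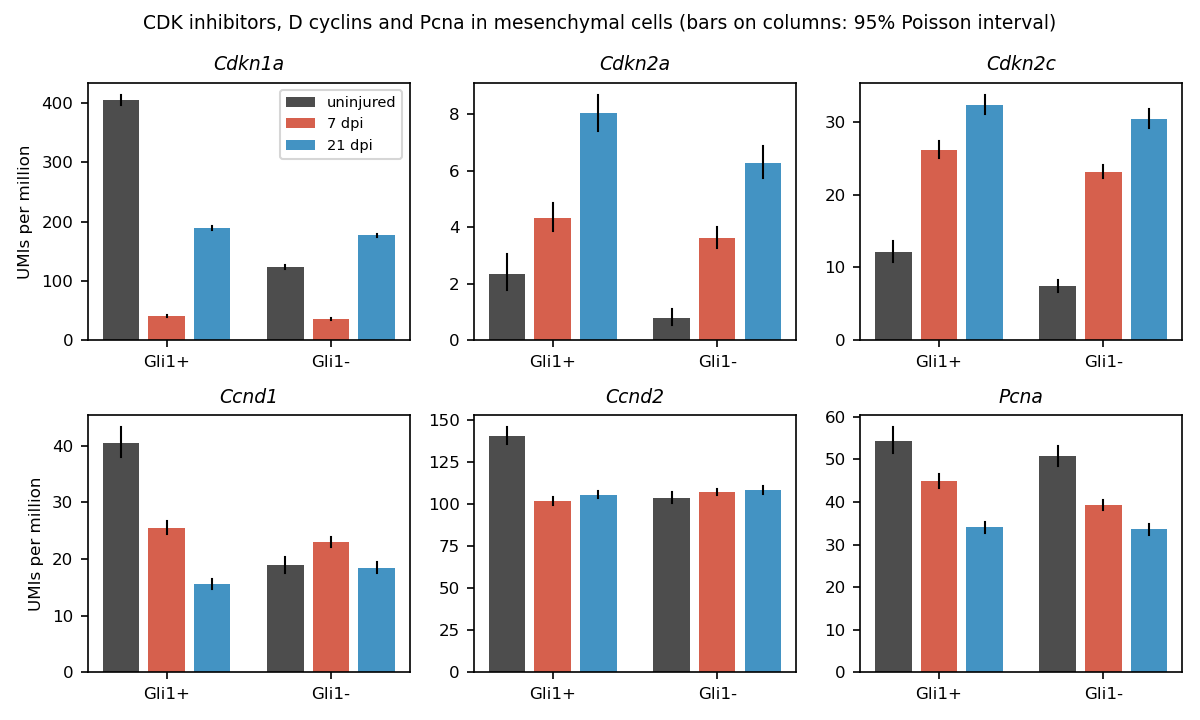
Levels of the 3 CDK inhibitors, the D cyclins and *Pcna* in mesenchymal cells, in CPM on axes that start at 0, for *Gli1*+ and *Gli1*- cells of uninjured tendon (grey), 7 dpi (red) and 21 dpi (blue), with 95% Poisson intervals. *Cdkn1a* is lowest at 7 dpi, *Cdkn2a* and *Cdkn2c* are highest at 21 dpi, and the uninjured *Gli1*+ bar is the tallest for *Ccnd1*, *Ccnd2* and *Pcna*.

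Other genes of the same pathway, from lists that hold none of the 41, were counted the same way. Of 40 further G2 and M genes, 29 were higher and 0 lower at 7 dpi in *Gli1*+ cells (median log2 ratio 2.28), and 27 and 0 in *Gli1*- cells (2.62), where 13.4% and 14.1% of all genes were higher and 20% and 15.4% lower. The largest in the *Gli1*+ libraries was the spindle checkpoint kinase gene *Ttk*, at 0.214, 4.18 and 0.738 CPM in *Gli1*+ cells and 0.188, 3.51 and 0.696 CPM in *Gli1*- cells, followed by *Cdca3*, which helps entry into mitosis, and *Cdca8*, a partner of Aurora B, with log2 ratios of 4.17 and 3.75 in *Gli1*+ cells. Of 32 further S phase genes 18 were higher and 2 lower in *Gli1*+ (median 1.40), and 18 and 1 in *Gli1*- cells (1.11). Their largest were the repair gene *Rad51ap1* at 3.93, the replication licensing inhibitor gene *Gmnn* at 3.55 and *Uhrf1*, which keeps DNA methylation through replication, at 3.52. At 21 dpi 13 of the 40 G2 and M genes were higher and 0 lower in *Gli1*+ cells, and 21 and 1 in *Gli1*- cells. Of 31 S phase genes tested 4 were higher and 4 lower in *Gli1*+ (median -0.18), and 8 and 3 in *Gli1*- cells (median 0.12). The shares of all genes at 21 dpi were 7.66% higher and 19.5% lower in *Gli1*+, and 12.6% and 15.6% in *Gli1*- cells.

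Of 19 genes around the retinoblastoma proteins and G1 kinases 5 were higher and 3 lower at 7 dpi in *Gli1*+, and 5 and 4 in *Gli1*- cells, where 13.4% and 14.1% of all genes were higher and 20% and 15.4% lower. The median log2 ratios of the 19 were -0.21 and -0.34. The 3 named next were taken by the size of their *Gli1*+ ratio at 7 dpi. *Cdkn2b*, the INK4 inhibitor beside *Cdkn2a*, was at 4.93, 32.0 and 21.7 CPM in *Gli1*+ cells and 3.6, 28.9 and 18.8 CPM in *Gli1*- cells. The partner kinases of the D cyclins were higher too, *Cdk4* at 46.0, 133 and 100.3 CPM in *Gli1*+ cells and 48.0, 136 and 96.3 CPM in *Gli1*- cells. *Cdk6* was at 11.1, 31.9 and 28.6 CPM and 3.55, 28.0 and 29.8 CPM. *Cdkn2b* was highest at 7 dpi in both sorts, unlike *Cdkn2a* and *Cdkn2c*.

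In the G2 and M sum the sorts differed less from each other than the time points did. This did not hold for every gene. In uninjured tendon *Cdkn1a* differed more between the sorts than either sort did from uninjured tendon to 21 dpi. *Ccnd1* did so against the change to 7 dpi. At 7 dpi none of the 41 genes differed by the fold between *Gli1*+ and *Gli1*- mesenchymal cells, where 3.63% of all genes were higher and 1.5% lower in *Gli1*+. Still the 41 ratios had a median of 0.26 against 0.04 for all genes. Of the 41, 37 lay above 0, 32 with intervals above 0, and 1 interval, that of *Ccnd2*, lay below. The share of all genes with intervals clear of 0 was not counted, so these counts have no background. The summed G2 and M level was higher in *Gli1*+ cells by a log2 ratio of 0.31 (0.29 to 0.34) and the S phase level by 0.18 (0.16 to 0.21). At 21 dpi none passed the fold (all genes 1.02% and 1.49%), and the ratios of the sums were -0.13 (-0.17 to -0.08) and 0.05 (0.01 to 0.09). In uninjured tendon, where 34 genes reached 50 UMIs, 7 were higher and 2 lower in *Gli1*+ cells, against 11.6% and 4.89% of all genes. Higher were *Cdkn1a* at 1.72 (1.67 to 1.77), *Cdkn2a*, *Ccnd1*, *Rrm2*, *Top2a*, *Kif23* and *Nusap1*, and lower *Mcm4* at -1.11 (-1.29 to -0.94) and *Ube2c*. *Ccne1*, *Pclaf* and *Aurkb* were past the fold too, on fewer than 50 UMIs, and were not counted. Under TMM scaling *Ccnd1* and *Nusap1* were under the fold, at 0.89 and 0.81. TMM scaling turned the sign of *Mcm5*, *Pcna*, *Cdk1*, *Ccnb1* and *Cenpa* in uninjured tendon, of *Tk1* at 7 dpi and of *Tyms* at 21 dpi. T cells, counted in the uninjured *Gli1*+ library alone, held *Top2a* at 98.9, *Kif23* at 32.7, *Nusap1* at 26.6 and *Rrm2* at 16.6 CPM. They also held *Ube2c*, which was lower in *Gli1*+ mesenchyme, at 32.5 CPM. Whether RNA from T cells adds to these mesenchymal levels was not tested. Sex differed between the sorts in uninjured tendon. Among Y-linked uninjured cells the *Gli1*+ and *Gli1*- levels were 349 and 126 CPM for *Cdkn1a*, 50.4 and 19.8 CPM for *Ccnd1* and 7.08 and 0.946 CPM for *Cdkn2a*, higher in *Gli1*+ cells as over all cells. *Cdkn1a* was also higher in the uninjured *Gli1*+ library outside mesenchyme. It was at 922 against 389 CPM in blood endothelial, 488 against 256 CPM in mural and 203 against 107 CPM in skeletal muscle cells.

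Levels do not say how many cells carried these transcripts, so cells were counted after each was thinned to 2000 UMIs, which left out shallower cells (42 to 256 mesenchymal cells per library). In *Gli1*+ mesenchyme the share of cells with UMIs of at least 2 different G2 and M genes was 0.289% (0.116 to 0.595%, 7 of 2420 cells) in uninjured tendon, 9.96% (9.26 to 10.7%, 676 of 6784 cells) at 7 dpi and 1.55% (1.29 to 1.85%, 121 of 7802 cells) at 21 dpi. In *Gli1*- mesenchyme it was 0.231% (0.123 to 0.395%, 13 of 5620 cells), 7.0% (6.45 to 7.59%, 555 of 7925 cells) and 1.57% (1.3 to 1.88%, 115 of 7322 cells). At 7 dpi the interval of either sort lay far above those of the uninjured and 21 dpi libraries, and the *Gli1*+ interval above the *Gli1*- one. Without thinning the shares were 2.72, 30.5 and 5.26% for *Gli1*+ and 0.619, 24.4 and 5.16% for *Gli1*- mesenchyme. The median depths of the libraries' mesenchymal cells were 8503.5, 9273 and 8858 UMIs in *Gli1*+ and 5786, 11502 and 8959 in *Gli1*- cells. Skeletal muscle fibres do not divide and are taken here to stand for free RNA, which was not tested. Their cluster had the pigment cell gene *Dct* among its leading genes and may not be muscle alone. The thinned share of the fibres was 1 of 85 cells (1.18%) in the uninjured *Gli1*+ library, at a median of 6548.5 UMIs. It was 0 of 115 cells in the uninjured *Gli1*- library, at 3478 UMIs, with an interval up to 3.16%. In *Gli1*+ cells at 21 dpi it was 0 of 63 cells, at 2773 UMIs, with an interval up to 5.69%. The mesenchymal shares of those 3 libraries lie within what these few cells allow and are not read as cells in cycle from this measure alone. The summed G2 and M levels of the fibres, on few UMIs, were close to the mesenchymal sums in the uninjured libraries and lower at 21 dpi in both sorts. The uninjured sums are therefore not read as cells in cycle either. At 7 dpi, and in *Gli1*- cells at 21 dpi after thinning, too few muscle fibres were found for a share. Among Y-linked cells the share was 0.334% in uninjured tendon and 10.8% at 7 dpi in *Gli1*+, and 0.124 and 7.92% in *Gli1*- cells.

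The share with at least 2 different S phase genes was 2.89, 8.61 and 2.36% in *Gli1*+ and 3.51, 6.17 and 2.2% in *Gli1*- mesenchyme, so that it too was highest at 7 dpi. Without thinning it was 26.4, 38.5 and 20.3% for *Gli1*+ and 20.8, 40.9 and 20.6% for *Gli1*- mesenchyme. The thinned share in muscle fibres was 1 of 85 cells (1.18%) in uninjured *Gli1*+, 3 of 63 (4.76%) in 21 dpi *Gli1*+ and 2 of 115 (1.74%) in uninjured *Gli1*- tendon, and the mesenchymal shares of those libraries lay within the intervals of these few cells. Cells that met both rules made up 0.0413, 3.69 and 0.538% and 0.0534, 2.62 and 0.56%. Cells with G2 and M transcripts were deeper than the rest at 7 dpi, with medians of 13690.5 against 9191.5 UMIs before thinning in *Gli1*+ and 17367 against 11262 in *Gli1*- cells. At 21 dpi the medians were 15906 against 8986 and 15816 against 9087 UMIs. In the uninjured libraries the rule picked 7 and 13 cells, with medians of 23958 against 8571 and 5350 against 5888 UMIs.

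At 7 dpi 630 of the 676 such *Gli1*+ cells (93.2%) and 519 of the 555 *Gli1*- cells (93.5%) lay in clusters 2 and 3, which hold most cells of that time. At 21 dpi 54 of 121 (44.6%) and 48 of 115 (41.7%) did. Cluster 2, led by H19, *Ccl2*, Ptn and *Postn*, had a share of 49.9% (203 of 407 cells) in *Gli1*+ and 9.34% (508 of 5441) in *Gli1*- cells at 7 dpi, and of 42.7% (50 of 117) and 26.1% (47 of 180) at 21 dpi. Cluster 3, led by *Crabp1*, held 8.01% (427 of 5333) in *Gli1*+ cells at 7 dpi. Few *Gli1*+ cells were in cluster 2 at 7 dpi, and they were the ones richest in G2 and M transcripts. The tenocyte-like cluster 7, marked by *Fmod* and *Mkx*, had shares of 0.288, 3.45 and 0.233% in *Gli1*+ cells, and 2.58% in *Gli1*- cells at 7 dpi. At 21 dpi the tenocyte-like cluster 1, marked by *Tnmd* and *Thbs4*, was at 0.283% in *Gli1*+ and 0.265% in *Gli1*- cells, cluster 9, led by *Saa3* and *Mmp13*, at 4.26 and 4.23%, and the chondrocyte-like cluster 17, marked by *Col2a1* with the bone genes *Ibsp* and *Bglap* also among its leading genes, at 4.04 and 2.73%.

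*Cdkn1a* and G2 and M levels were then set side by side in each cluster. The chondrocyte-like cluster 17 had the highest *Cdkn1a* level of the 21 dpi clusters, 650 CPM (626 to 674) for the *Gli1*+ library and 536 CPM (516 to 556) for the *Gli1*- library, with G2 and M sums of 199 and 174 CPM, above the 27.0 and 27.7 CPM of tenocyte-like cluster 1, whose *Cdkn1a* was at 113 and 112 CPM. Cluster 2 had G2 and M sums of 1937 CPM at 7 dpi and 1756 CPM at 21 dpi in *Gli1*+ cells, and of 413 and 1287 CPM in *Gli1*- cells, with *Cdkn1a* at 55.0, 83.1, 33.3 and 72.1 CPM. At 7 dpi *Cdkn1a* lay between 26.7 and 55.0 CPM in every mesenchymal cluster with at least 50 cells in a library except cluster 5 of the *Gli1*- library, the stem cell-like cluster marked by *Dpp4*, at 116 CPM (101 to 132).

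**Figure D4:**
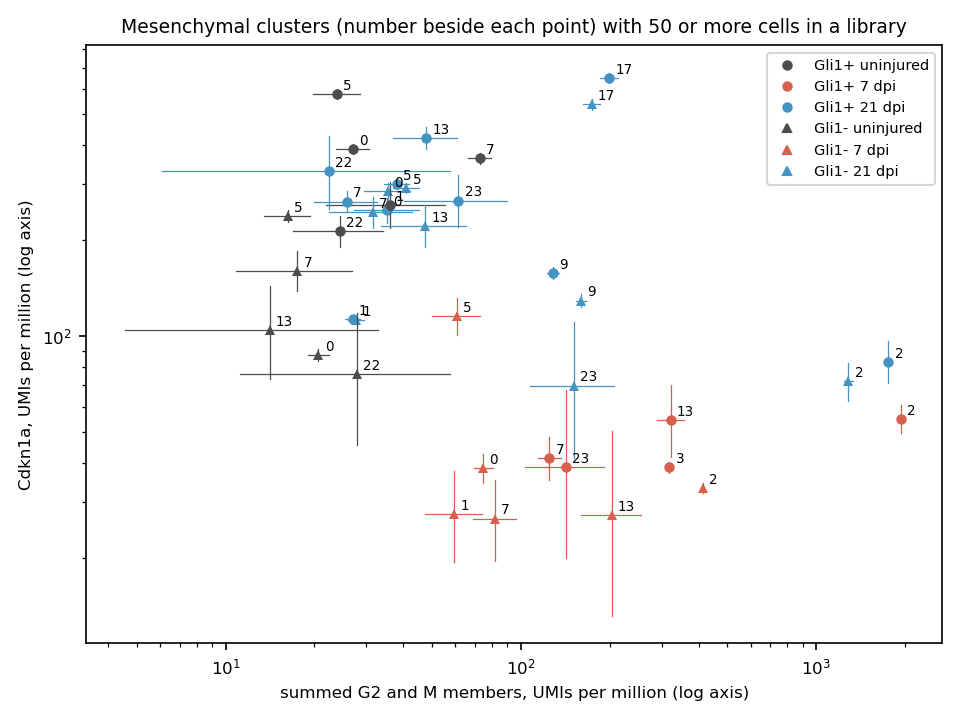
Summed G2 and M level (horizontal) against the *Cdkn1a* level (vertical) in each mesenchymal cluster with at least 50 cells in a library, both in CPM on log axes, with 95% Poisson intervals and the cluster number beside each point. The red 7 dpi points lie at 26.7 to 55.0 CPM of *Cdkn1a* except cluster 5 of the *Gli1*- library at 116, and both cluster 17 points at 21 dpi join a high *Cdkn1a* level with a G2 and M sum of 174 to 199 CPM.

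Cells with and without G2 and M transcripts were then compared within libraries. At 7 dpi the thinned *Cdkn1a* level was 39.2 CPM in *Gli1*+ cells with at least 2 G2 and M genes and 44.1 CPM in those without, a log2 ratio of -0.17 (-0.61 to 0.24), and in *Gli1*- cells 27.9 and 39.8 CPM, -0.51 (-1.08 to 0.01). At 21 dpi it was 112 against 191 CPM (-0.78, -1.38 to -0.23) and 109 against 183 CPM (-0.75, -1.38 to -0.19). *Cdkn2c* went the other way, with 49.6 against 22.3 CPM in *Gli1*+ and 55.9 against 20.1 CPM in *Gli1*- cells at 7 dpi, and 90.9 against 31.2 CPM and 78.3 against 28.9 CPM at 21 dpi. *Ccne1* was at 17.0 against 4.67 CPM in *Gli1*+ and 18.9 against 4.55 CPM in *Gli1*- cells at 7 dpi, and *E2f1* at 33.3 against 13.3 and 25.2 against 11.8 CPM. At 7 dpi *Ccnd2* had log2 ratios of -0.41 (-0.72 to -0.12) and -0.29 (-0.60 to 0.02) between these cells, and *Ccnd1* of 0.36 (-0.15 to 0.84) and 0.49 (-0.06 to 0.99), so that 3 of these 4 intervals crossed 0. At 21 dpi *Ccnd2* had -0.32 (-1.03 to 0.31) and -0.91 (-1.82 to -0.13), and *Ccnd1* 1.20 (-0.03 to 2.20) and 0.05 (-1.84 to 1.43). Cells of 1 library are no replicates, and these ratios are descriptions of the libraries.

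Other cell types had their own patterns. In blood endothelial cells the summed G2 and M level was 46.2, 407 and 315 CPM in *Gli1*+ cells and 44.2, 608 and 416 CPM in *Gli1*- libraries. In mural cells, the muscle-like cells around vessels, it was 98.5, 554 and 282 CPM and 38.4, 969.6 and 317 CPM. Both types were highest at 7 dpi and, at 21 dpi, above mesenchymal cells of the same library. Their thinned shares at 21 dpi were 6.52% (5.11 to 8.18%, 69 of 1058 cells) and 3.96% (2.84 to 5.35%, 40 of 1011 cells) in *Gli1*-, against 1.57% of mesenchymal cells. The blood endothelial share joins unlike clusters. It was 8.77% (67 of 764 cells) in cluster 11 and 0.68% (0.08 to 2.44%, 2 of 294 cells) in cluster 4. Thinning left out 7 cells of cluster 11 and 366 of cluster 4.

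In lymphatic endothelial cells of the *Gli1*- libraries the G2 and M sum was 29.0, 2007 and 176 CPM, and the share at 7 dpi 28.3% (17.5 to 41.4%, 17 of 60 cells). In Schwann cells, the glia of nerves, it was 30.5, 600.3 and 64.9 CPM, with a share of 6.29% (2.92 to 11.6%, 9 of 143 cells) at 7 dpi. At 21 dpi the Schwann cell share was 0 of 123 cells, with an interval up to 2.95%. Thinning left out 93 Schwann cells at 7 dpi and 77 at 21 dpi. Among the types counted in *Gli1*- cells at 7 dpi, lymphatic endothelium had the highest share, from few cells. Epidermal cells, which come from skin, had high sums at every time, 1419, 968 and 1052 CPM in the *Gli1*+ libraries, with shares of 22.8, 19.8 and 22.6%, and a share of 33.3% in *Gli1*- cells at 21 dpi. T cells, counted in the uninjured *Gli1*+ library alone, had a sum of 566 CPM and a share of 5.53% (4.68 to 6.49%, 141 of 2548 cells), and macrophages one of 1.03%.

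**Figure D5:**
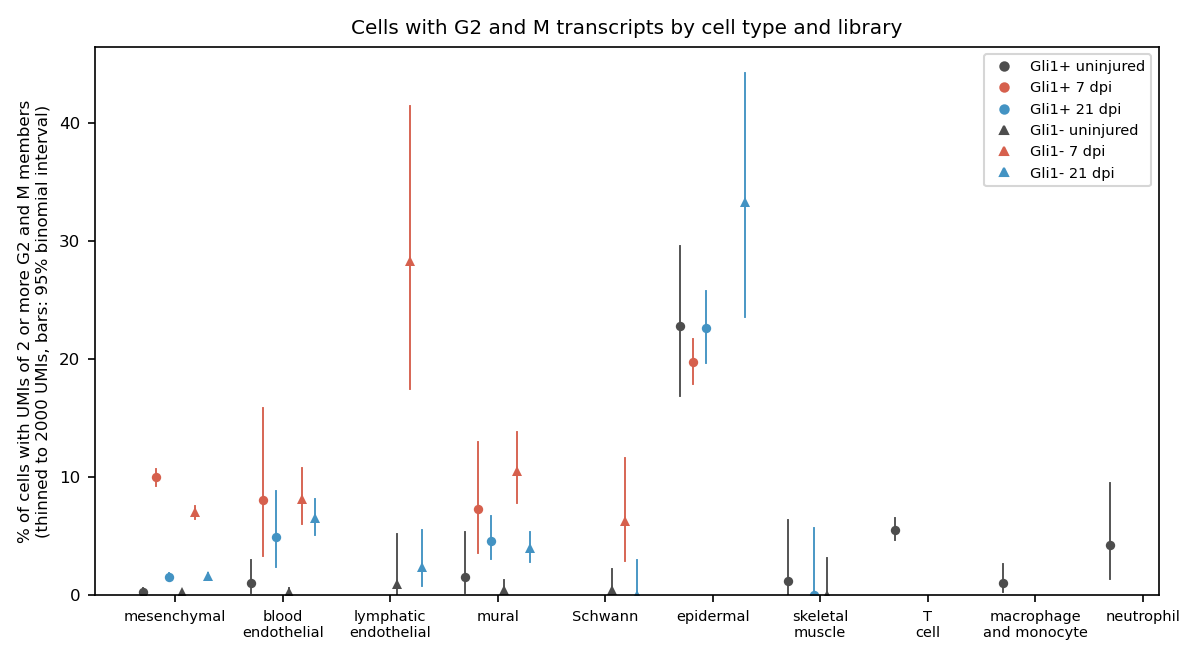
Share of cells with UMIs of at least 2 different G2 and M genes after thinning to 2000 UMIs, in percent on an axis from 0, by cell type and library, with 95% binomial intervals. Mesenchymal, blood endothelial, lymphatic, mural and Schwann cells stand highest at 7 dpi in each sort shown, while epidermal cells are at 19.8 to 33.3% throughout.

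Whole *Gli1*+ libraries gave another order than their mesenchymal cells did, while whole *Gli1*- libraries kept the order. Over all kept cells the summed G2 and M level was 346, 555 and 225 CPM in the *Gli1*+ and 32.8, 405 and 184 CPM in the *Gli1*- libraries. T cells held 12444 of the 22121 G2 and M UMIs of uninjured *Gli1*+ tendon and epidermal cells 6419, while at 21 dpi epidermal cells held 11700 of 22103 and no T cells were counted. The uninjured library stood above the one at 21 dpi, with a log2 ratio of -0.62 (-0.65 to -0.59) at 21 dpi against 1.32 (1.22 to 1.41) in mesenchymal cells. *Cdkn1a* was lowest at 7 dpi in several types. It was at 922, 150.2 and 253 CPM in blood endothelial cells of the *Gli1*+ and 389, 135 and 258 CPM in those of the *Gli1*- libraries, and at 488, 97.4 and 225 CPM and 256, 75.2 and 209 CPM in mural cells. In *Gli1*- Schwann cells it was at 405, 155 and 378 CPM and in *Gli1*- lymphatic endothelial cells at 205, 69.6 and 166 CPM. Epidermal cells of the *Gli1*+ libraries had 225, 178 and 175 CPM, so that *Cdkn1a* was not lowest at 7 dpi there. Skeletal muscle fibres had 203 CPM of *Cdkn1a* in uninjured and 182 CPM in 21 dpi *Gli1*+ libraries, and 107 and 210 CPM in *Gli1*- libraries. Mesenchymal cells of these libraries were at 405 and 189 CPM in *Gli1*+ and at 123 and 177 CPM in *Gli1*-. All but the uninjured *Gli1*+ level lay within the intervals of the fibres. What part free RNA has in these levels was not tested.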

How the data were processed

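Achilles tendon cells were sorted by the reporter and read with Chromium 3' v3 chemistry, 1 library per condition. The deposited values are UMI counts per gene and cell barcode, not normalized. The file headers name Cell Ranger 9.0.0, while the submitters' processing notes list Cell Ranger 3.1.0, STAR and mm10. The annotation release is not given in the sources used here. The members and all gene lists were chosen with earlier results of these data known.

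Barcodes with at least 200 genes and 1000 UMIs, a log10 genes to log10 UMIs ratio of at least 0.7 and at most 5% mitochondrial and 5% haemoglobin UMIs were kept, and Scrublet doublets at 0.8% per 1000 cells were removed (451 to 1160 barcodes per library). The 6 libraries were clustered together in scanpy 1.11.5 on 2000 variable genes, from which the 41 genes, the other cell cycle lists and the type markers were left out, with 30 components, 20 neighbours and Leiden resolution 0.5. A cluster was named where the log2 ratio of its marker levels over those of the other clusters averaged at least 1. At least 3 markers (fewer for short lists) had to reach a log2 ratio of 1. Names that the leading genes went against, and those of shallow clusters without a leading marker, were dropped. Unnamed clusters with *Pdgfra* of at least 100 CPM counted as mesenchymal, a limit chosen after seeing the data.

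Counts were summed per library and type and divided by their total. Intervals are 95% exact Poisson for levels, exact Clopper-Pearson for shares and from the exact binomial of both counts for ratios, computed in scipy 1.17.1. UMIs of a pooled library are not independent mice, so these intervals cover counting error only. No test between conditions was made. Genes were named by a fixed rule: the G1 genes, the inhibitors, the 4 S phase and 5 G2 and M genes with the most UMIs, and members whose ratio over uninjured tendon, with an interval that excluded 0, opposed the sign of their group sum, with 3 genes of each other list. Scaling by TMM factors (edgeR 4.0.16) and median ratios (DESeq2 1.42.0) was an alternative, and the closing section gives its effect. The counting script was tested on simulated data. No per-sample column was left unused.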

Additional observations from a re-analysis of the deposited data

Results flagged for a closer look

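In 5 cases the ratio over uninjured tendon had opposite signs in the *Gli1*+ and *Gli1*- libraries with both counting intervals clear of 0 and the same signs under TMM scaling. How many of all genes met this rule was not counted. *Ccnd2* and *Rrm1* at 7 dpi and *Mcm5* and *Kif11* at 21 dpi also had opposite signs, with an interval across 0 in at least 1 sort. With 1 library per condition the difference between the sorts was not tested, and the values are given as they are. At 7 dpi the log2 ratio was -0.67 in *Gli1*+ and 0.28 in *Gli1*- cells for *Ccnd1*, and 0.51 and -0.67 for *Mcm4*. At 21 dpi it was -0.41 and 0.060 for *Ccnd2*, -0.82 and 0.38 for *Nusap1*, and -1.1 and 0.53 for *Cdkn1a*, the last of which was 0.12 with clusters made at resolution 1.0. TMM scaling shifts the *Gli1*+ ratios at 21 dpi up by 0.36, which takes up most of the -0.41 of *Ccnd2*. In each case the uninjured libraries of the sorts differed, with the higher level in *Gli1*+ cells for all but *Mcm4*. The uninjured *Gli1*- level of *Mcm4* was not particular to mesenchyme, as given with that gene.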

How the results depend on the processing

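No paired analysis was possible because each condition is 1 library, and leaving out a library leaves no comparison. The counts of members higher by the fold at 7 dpi, 32 and 34, moved by less than 1.5 times under the 4 settings run. Under TMM scaling 35 and 34 members were higher at 7 dpi in *Gli1*+ and *Gli1*- cells, and 24 and 25 at 21 dpi. The count lower at 21 dpi in *Gli1*+ cells went from 2 to 1. From 7 to 21 dpi 31 were lower in each sort, and the count higher in *Gli1*+ cells went from 1 to 2. The shares of all genes past the fold were not counted under TMM scaling, so these counts have no background. TMM and median-ratio scaling gave -3.09 and -3.09 for *Cdkn1a* in *Gli1*+ cells at 7 dpi, 3.65 and 3.65 for the G2 and M sum there, 1.68 and 1.66 at 21 dpi, 2.11 and 2.10 in *Gli1*- cells at 21 dpi, 1.28 and 1.28 for the S phase sum in *Gli1*+ and 0.74 and 0.73 in *Gli1*- cells at 7 dpi, and turned the S phase sum in *Gli1*+ cells at 21 dpi to 0.18 and 0.17, as leaving out *Pcna* did with 0.073. Without *Pcna* the 7 dpi S phase ratios were 1.54 and 1.01. Without clusters 2 and 3, an alternative chosen after seeing the data, the G2 and M ratios were 2.31 and 2.23 at 7 dpi and 0.52 and 1.80 at 21 dpi, and the S phase ratios at 7 dpi 0.54 and -0.17. Clustering each sort alone gave -1.83 for *Cdkn1a* in *Gli1*- cells, and 3.50 and 1.86 for their G2 and M sum at 7 and 21 dpi, and resolution 1.0 gave -2.16, 3.2 and 1.54. The *Gli1*- ratio of *Cdkn1a* at 21 dpi, 0.53, was 0.45 and 0.12 under these settings. With doublets kept the *Gli1*+ G2 and M ratios were 3.19 and 1.09. In Y-linked cells at 7 dpi *Cdkn1a* was at -3.12 and -1.85, the G2 and M sum at 2.61 and 4.0 and the *Gli1*- S phase sum at 0.78, and in *Xist* cells of *Gli1*+ at 21 dpi the G2 and M sum was at 1.78. Other splits by sex held too few cells. The rise in the thinned share from uninjured tendon to 7 dpi, 9.68 percentage points in *Gli1*+ and 6.77 in *Gli1*- cells, was 6.18 and 4.66 with at least 3 genes, 6.04 and 4.58 at 1000 UMIs, 27.8 and 23.7 without thinning and 10.5 and 7.79 in Y-linked cells. The cause of these moves was not tested. Depth limits the uninjured levels of genes with few UMIs, such as *Bub1* and *Plk1*.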
